A study of Drosophila melanogaster with 27 samples.

Results

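Of the 4911 probe sets whose only gene symbol was a CG number, 97 were highest in mid prepupae, at 6 or 8 hours after pupariation, and varied at least 4-fold over the time course. A CG number is the placeholder that a predicted gene of *Drosophila melanogaster* keeps until it is named for a function or a mutant phenotype. The 97 probe sets stand for 96 genes, because *CG32548* has 2 probe sets, and the array holds 13966 probe sets in all. They were chosen by the stage means of the same arrays: intensities under 60 were raised to that floor, log2 values were averaged over the 3 arrays of a stage, the highest mean had to be at 6 or 8 h and at least 2 log2 units above the lowest, and all 3 arrays had to exceed 60 at the highest stage. Since those means made the choice, the stage pattern is given below as a description without a test, and tests are kept for comparisons between other stages. Among the 97, 32 were highest at 6 h and 65 at 8 h. When the rule was rerun without single arrays, both the set chosen and its split changed. Without replicate 2 at 6 h, 113 probe sets met the rule, 52 highest at 6 h and 61 at 8 h. Without replicate 1 at 6 h, 90 met it, 23 highest at 6 h and 67 at 8 h. In each case 93 of the 97 kept the same highest stage.

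RNA came from whole *w1118* animals, a white-eyed laboratory strain that serves as wild type, and no other allele or agent is named for any group. The 9 groups were larvae of the third instar at -18 and -4 h relative to pupariation, prepupae at 0, 2, 4, 6, 8 and 10 h, and pupae at 12 h, each with 3 samples of 10 animals and 1 array per sample. Larvae were staged with 0.05% bromophenol blue in the food, a dye that empties from the gut as pupariation nears, and the later groups by their time from pupariation. Values are intensities from an Affymetrix array, which are not calibrated between probe sets, so levels are set against each other within a probe set only, apart from sums over marker lists. Readings are given as deposited, for replicates 1, 2 and 3 in that order, and a fold is the ratio of geometric means of the floored values.

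The steroid 20-hydroxyecdysone (20E) times these stages in *Drosophila*. Its titre peaks as the larva stops wandering and forms the puparium, and peaks again as the prepupa becomes a pupa and everts its head. Between the peaks the hormone is low, and the nuclear receptor gene *ftz-f1*, whose product makes tissues competent to answer the later pulse, is expressed for a short time. In these hours the epidermis detaches from the larval cuticle and lays down the pupal one, legs and wings evert, and larval tissues begin to be removed.

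The arrays were alike in scale, with medians between 249.4 and 277.3 and 8.76% to 10.7% of probe sets at the floor. The lowest correlation between arrays of a stage was 0.864, at -18 h. Replicate 2 at -18 h was at least 1.5-fold above both other arrays of its stage for 26 members and replicate 1 at -4 h for 23, or 26.8% and 23.7% of members, against 16.2% and 17.0% of the 12867 probe sets tested. Both were true of 17 members, 17.5%, against 11.8%. *CG17127* is an example, with 531, 2739.6 and 667 in the 3 arrays at -18 h and 1751, 590.4 and 586 at -4 h. In the other direction, replicate 2 at -18 h and replicate 1 at -4 h were at least 1.5-fold below both others for 10 and 12 members. These are 10.3% and 12.4% of members, against 15.1% and 9.52% of the probe sets tested. Counts for the comparisons that use these stages are therefore also given without those arrays. No tissue was dissected, so a lower value can come from fewer cells of a type or from less RNA per cell, which cannot be told apart here.

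As the stage means show, no member was within 2-fold of its highest mean at -18 h, and many were within 2-fold of it at a stage beside the highest. Of the 32 members highest at 6 h, 13 were within 2-fold of their highest mean at 4 h, 19 at 8 h and 2 at 10 h. Their median level at 6 h was 2.23-fold that at 4 h and 4.71-fold that at 10 h. Of the 65 members highest at 8 h, 13 were within 2-fold of their highest mean at 4 h and 27 at 6 h. Later, 32 of the 65 were within 2-fold at 10 h and 18 at 12 h. Their median level at 8 h was 4.30-fold that at 4 h, 2.25-fold that at 10 h and 3.38-fold that at 12 h. A stage after the highest, then, 19 of 32 and 32 of 65 were within 2-fold. No other stage in a row with the highest was within 2-fold of it in 8 of the 6 h members and 20 of the 8 h members. The stage with the second highest mean was most often 4 h for the 6 h members, in 17 of 32, and 10 h for the 8 h members, in 30 of 65.

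**Figure D1:**
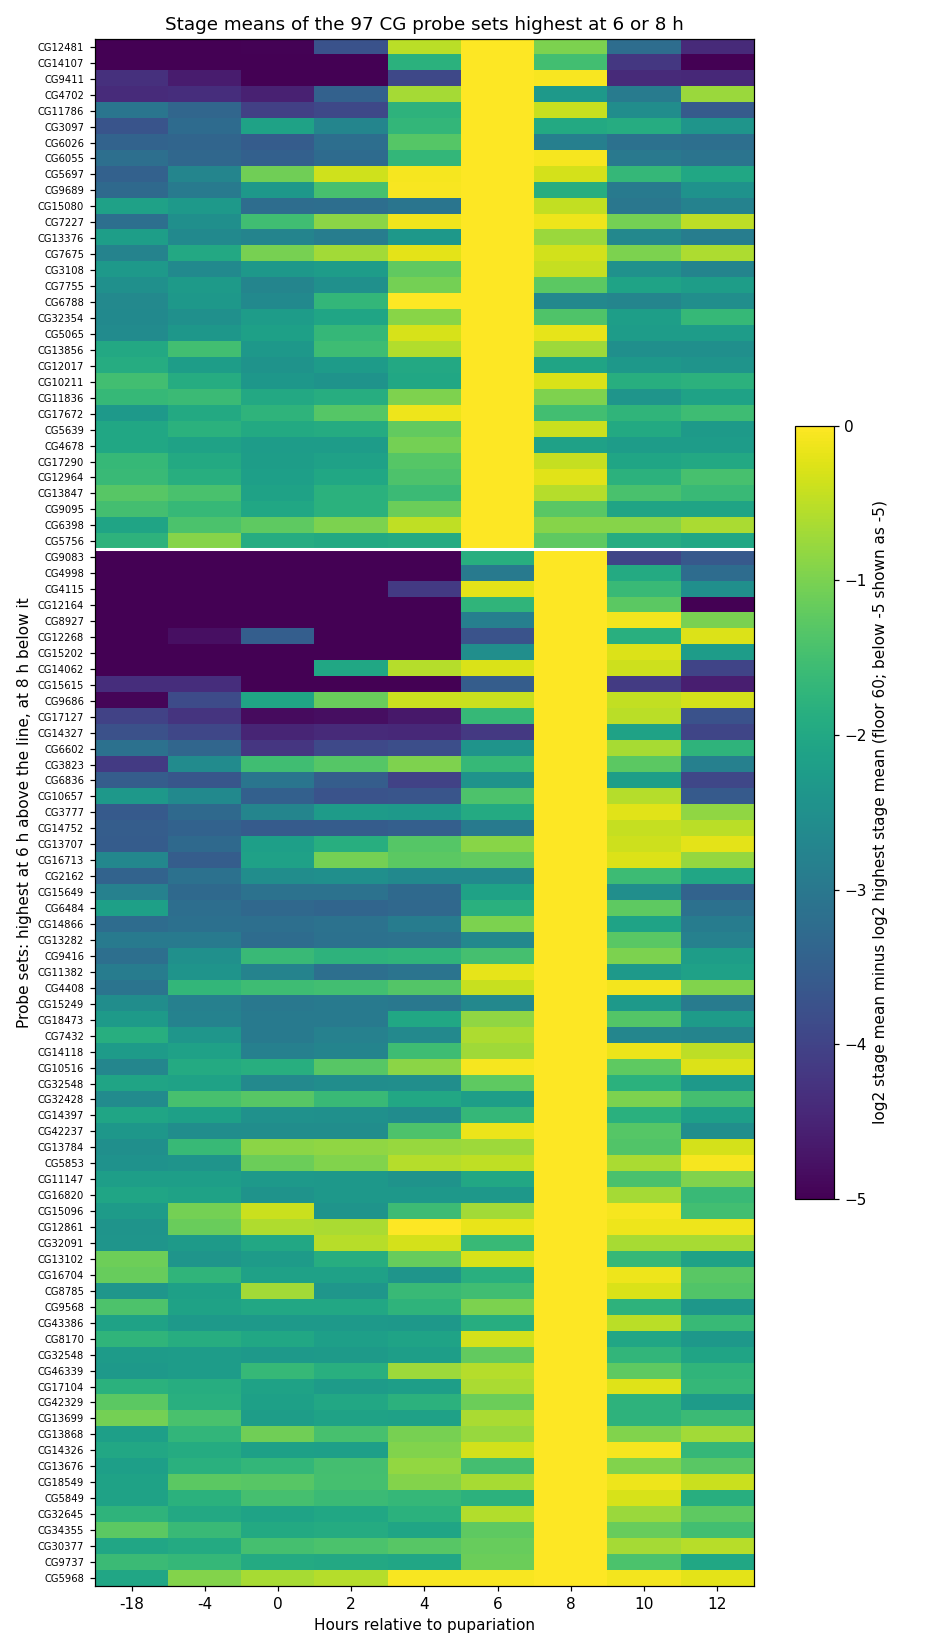
Stage means of the 97 probe sets as log2 difference from each probe set's own highest mean, with hours relative to pupariation across, 6 h members above the white line and 8 h members below it, each sorted by range. Yellow marks the highest stage and dark blue at least 5 log2 units below it. At 10 h, 2 of the 32 6 h members and 32 of the 65 8 h members are within 2-fold of their highest mean.

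Ranges between the highest and lowest stage ran from 4.06- to 47.2-fold among the 6 h members, with a median of 6.59-fold, and from 4.10- to 89.4-fold among the 8 h members, with a median of 6.51-fold. A range of at least 8-fold was reached by 40 members, 16-fold by 20 and 32-fold by 12. The lowest stage was -18 h for 32 members, 0 h for 30, and another stage for the rest. In 7 members all 3 arrays of at least 1 stage lay at or under the floor, so that their range is a lower bound. These are *CG9411*, *CG4678*, *CG15615*, *CG15249*, *CG42237*, *CG13699* and *CG5849*. The range is a lower bound also where only some arrays of the lowest stage were floored, as in *CG3823* and *CG7227* at -18 h. Highest means ran from 292 to 6552 at 6 h, with a median of 1017, and from 261 to 16039 at 8 h, with a median of 1819.

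*CG12481* had the widest range of the 6 h members. Its arrays read 95.0, 169 and 112 at -18 h, 459.6, 239 and 715 at 2 h, 3820.1, 3769.6 and 4501 at 4 h, 6277, 5349 and 5674 at 6 h and 3179, 3028 and 2533 at 8 h. The 3 arrays at 6 h were above every other array of the series, and the mean at 6 h was 47.2-fold that at -18 h. *CG14107* was low until 2 h, with 104, 118 and 114, and then read 1306, 1038 and 1341 at 4 h, 4909, 3677 and 4298 at 6 h, 1698, 1596 and 1249 at 8 h and 257, 230.4 and 219 at 10 h. By 12 h it was back at 113, 127 and 129, a complete rise and fall between 2 and 12 h that spanned 46.7-fold. *CG9411* stayed under the floor at 0 and 2 h and read 3713, 1858 and 2663 at 6 h and 2537, 2358 and 2734 at 8 h, at least 44.0-fold over its lowest stage. Its 6 and 8 h arrays overlap, so those stages cannot be ordered, and by 10 h the values had fallen to 137, 117 and 121.

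*CG4702* came up again at 12 h. It read 4290.1, 3631 and 4359.9 at 4 h and 7606, 5693 and 6356 at 6 h, dropped to 803, 976 and 806 at 10 h, and returned to 4745, 3698 and 3327 at 12 h. *CG11786* read 2388, 1664 and 2014 at 6 h and 1639, 1527 and 1315 at 8 h, against 125, 118 and 118 at 0 h, a span of 16.6-fold. *CG6026* was back down within 1 stage, at 790.4, 750.1 and 941 at 4 h, 2404, 1418 and 2516 at 6 h and already 288, 286 and 278 at 8 h. *CG6055* formed a plateau instead, with 6121, 4745 and 5497 at 6 h and 5255, 5294 and 4959 at 8 h, and then fell to 724, 665 and 678. *CG5697* and *CG9689* came up over several stages rather than at once. *CG5697* read 3163, 2735 and 2709 at 0 h, 6128, 5682 and 5444 at 4 h and 6289, 5800.1 and 6026 at 6 h, and *CG9689* read 737, 791 and 711, 3566, 3696 and 3671 and 3814, 3553 and 3884 at the same stages. For both of these genes the 4 and 6 h arrays overlap. *CG3097*, a predicted carboxypeptidase, completes the 10 with the widest range and is described with its family.

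**Figure D2:**
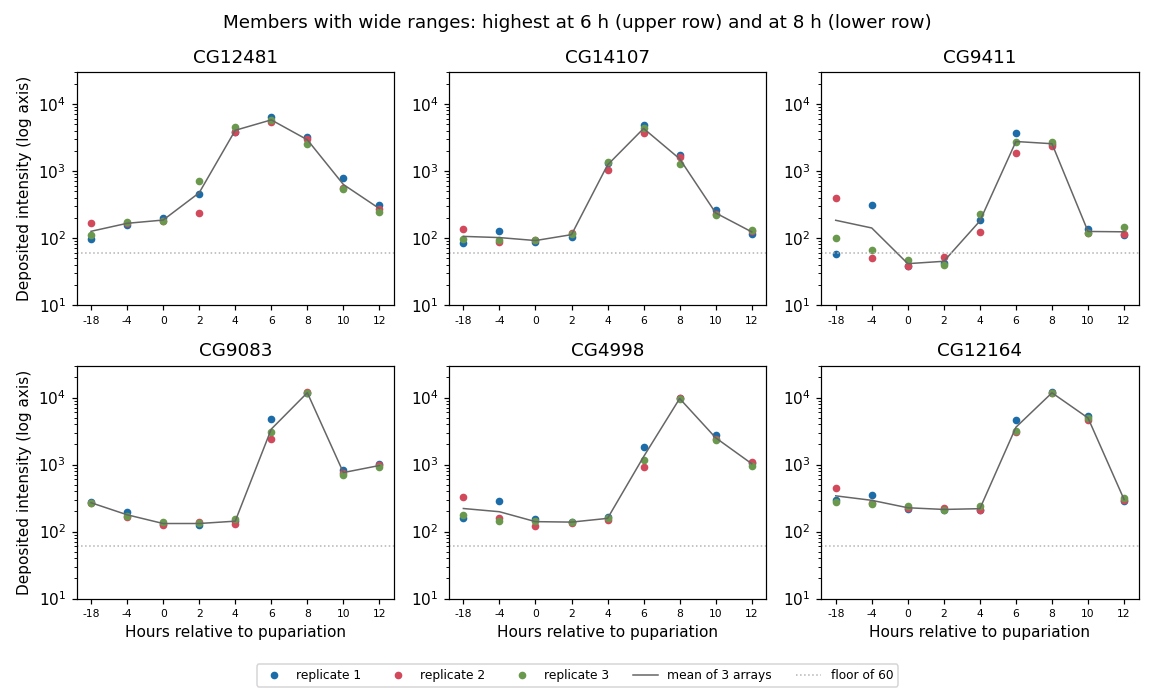
Deposited intensity (log axis) by hours relative to pupariation for *CG12481*, *CG14107* and *CG9411*, highest at 6 h, and *CG9083*, *CG4998* and *CG12164*, highest at 8 h; points are the 3 arrays of a stage, the line joins their means and the dotted line is the floor of 60. At 4 h *CG12481* and *CG14107* are already well above their larval arrays, while *CG9083*, *CG4998* and *CG12164* are not.

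*CG9083* had the widest range of all members. It read 145, 130.4 and 154 at 4 h, 4742, 2379 and 3021 at 6 h, 11779.5, 12080.5 and 11526 at 8 h and 817, 756 and 706 at 10 h, and its mean at 8 h was 89.4-fold that at 0 h. *CG4998*, a predicted serine protease homologue with a clip domain, followed at 69.7-fold, with 165, 147 and 161 at 4 h, 1847, 923 and 1163 at 6 h and 9723, 9824 and 9428 at 8 h. In neither gene did an array of another stage reach those of 8 h. *CG4115* had reached its level at 6 h, with 5080.0, 4168 and 4408 at 6 h and 5071, 5324 and 5291 at 8 h, which overlap, and spanned 65.6-fold. *CG12164* read 211, 207 and 241 at 4 h, 4584, 3030.2 and 3207 at 6 h, 12012, 11606 and 11667 at 8 h and 5375, 4604 and 4879 at 10 h, and was at 287, 298 and 318 at 12 h. *CG15615* was high at 1 stage only. It read 256, 162 and 162 at 6 h, 2239, 2211 and 2054 at 8 h and 129, 126 and 118 at 10 h, at least 36.1-fold over its lowest stage.

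Other 8 h members held their level into late prepupae. *CG8927* went from 118, 122 and 95.6 at 4 h to 5364, 5089 and 5644 at 8 h and 5158, 5250.1 and 4754 at 10 h, and the 8 and 10 h arrays overlap. *CG15202* read 376, 317 and 346 at 4 h, 11576, 10934 and 11129.5 at 8 h and 10029, 8470.1 and 9575 at 10 h. *CG14062* came up from 2 h, going from 264, 345 and 218 at 0 h to 2006, 2104 and 2649 at 2 h and 6471, 5994 and 5950.0 at 4 h, then held 9247, 8529 and 9316 at 8 h and 7147, 7107 and 6479 at 10 h before 352, 661 and 815 at 12 h. Its 6 h arrays, 8294, 6875 and 7179, were all below those at 8 h. *CG9686* also reached a plateau early, at 2052, 1888 and 1832 at 4 h, 2821, 2490.4 and 2344 at 8 h and 2570.0, 1920.4 and 1693 at 12 h, and its 8 h arrays overlap those at 6 and 12 h. *CG17127* read 15771, 16404 and 15942 at 8 h and 11738, 10576 and 11296 at 10 h against 588, 657 and 636 at 4 h.

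At 12 h, 18 of the 8 h members and 4 of the 6 h members were still within 2-fold of their highest mean. *CG14752* read 1073, 814 and 883 at 6 h, 7876, 6679 and 7021 at 8 h, 5794, 4894 and 5309 at 10 h and 4663, 5372 and 4928 at 12 h, so that most of the rise remained. *CG3777* also came down slowly, with 1551, 938 and 923 at 6 h, 4664, 3957 and 4077 at 8 h and 2511, 2194 and 2450.4 at 12 h. *CG13707* climbed slowly and its arrays at 8 h, 1114, 1013 and 868, overlap those at 12 h, 1304, 797 and 617. Members that qualified with a broad profile include *CG12861* and *CG5968*, whose arrays at 6, 8, 10 and 12 h overlap and whose highest stage is therefore not settled by these arrays. *CG12861* read 731, 619 and 812 at 4 h, 640.2, 732 and 786 at 8 h and 475, 799 and 749 at 12 h.

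Near the limit of a 4-fold range, the last members inside were *CG5756* at 4.06-fold, *CG5968* at 4.10-fold and *CG9737* at 4.14-fold. Just outside lay *CG12699* at 3.98-fold, *CG11367* at 3.95-fold and *CG32694* at 3.95-fold, all 3 highest at 8 h. Members were placed at 6 or 8 h by the means of these same arrays, so separation in that direction is only described. All 6 h arrays were above all 8 h arrays in 25 of the 32 6 h members. All 8 h arrays were above all 6 h arrays in 55 of the 65 8 h members. Over all probe sets tested 10.3% and 15.1% separated in those directions, a comparison the choice of members made uneven. The arrays of the highest stage were above every other array of the series in 21 of the 6 h members and 45 of the 8 h members. The rule favoured such separation, and its share over all probe sets was not computed, so these counts only describe the members.

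Spread at 6 h was larger for these genes than for the array at large, and it followed the array. The median SD between the 3 arrays at 6 h was 0.29 log2 units over the members and 0.14 over all probe sets. Replicate 2 at 6 h was the lowest of its stage for 79 of the 97, with a median difference of -0.40 log2 units from the other arrays of the stage, and replicate 1 lay 0.39 above them. At 8 h replicate 3 was the lowest for 69 members, at a median difference of -0.15, and replicate 1 was 0.19 above. Leaving out replicate 2 at 6 h, all 97 stayed, 93 of them with the same highest stage, and 113 probe sets met the rule. The difference was shared by members of both kinds, since the median in replicate 2 at 6 h was -0.47 for the 6 h members and -0.36 for the 8 h members.

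**Figure D3:**
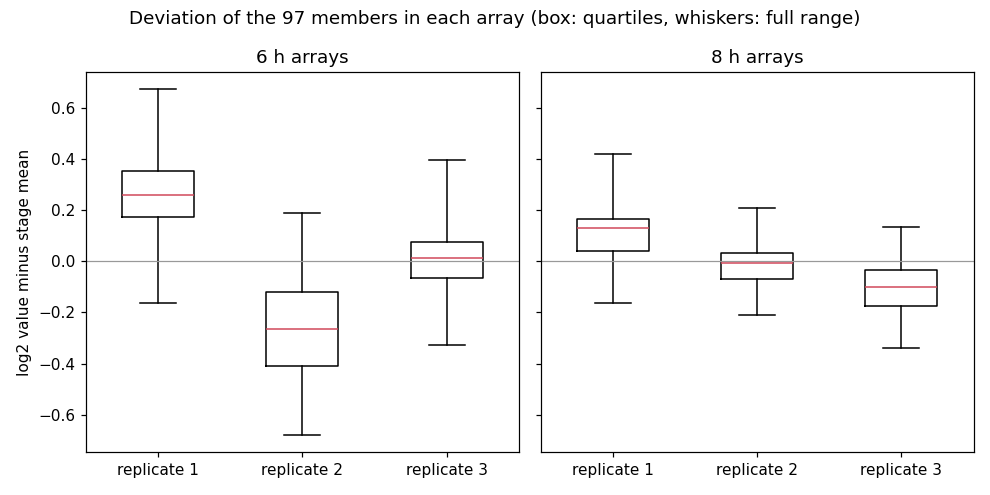
Log2 value of each of the 97 members minus its stage mean, by array, at 6 h (left) and 8 h (right); boxes give the quartiles with the median in red, whiskers the full range. Replicate 2 at 6 h lies low and replicate 1 high, and the spread at 8 h is narrower.

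The rule was also rerun without 1 replicate of every stage, which chose sets that differ in part from the 97. Without replicates 1, 2 and 3, 88, 95 and 93 of the chosen probe sets were members. Most of those chosen were highest at 6 or 8 h, either stage counted, in the left-out arrays. When replicate 1 of every stage was left out of the rule, 95 probe sets were chosen, and in the left-out arrays 89 of them, 93.7%, were highest at 6 or 8 h. Without replicate 2 the figures were 93 of 112, or 83.0%, and without replicate 3 they were 99 of 102, or 97.1%. Over all 4516 CG probe sets tested, 15.4%, 16.2% and 17.3% were highest at 6 or 8 h in the same left-out arrays. Restricted to CG probe sets that varied 4-fold in those arrays, the shares were 23.7%, 18.3% and 25.3%. These are counts in 1 array per stage and carry no test. A probe set chosen at 6 h but highest at 8 h in the left-out array is counted, so they do not show which of these stages recurred. Without replicates 1, 2 and 3, the chosen probe sets were highest at 6 h in 24, 50 and 30 cases and at 8 h in 71, 62 and 72.

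From what is known of their protein families, 28 of the 96 genes could be placed in 7 groups, and 68 were not grouped. The families were put together after the values had been seen, and every count on them is a description. In order of role they are proteases and their inhibitors, transporters, and enzymes and carriers of lipids.

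Clip-domain serine proteases and their inactive homologues act in extracellular cascades, such as those of melanization, immunity and epidermal remodelling, and 5 members belong to this family. *CG4998* was by far the widest, and the others ranged from 4.14- to 7.67-fold. *CG7432* went from 83.1, 83.5 and 97.0 at 4 h to 454, 295 and 339 at 6 h and 581, 600.1 and 475 at 8 h, and back to 80.8, 85.1 and 87.7 at 10 h. *CG8170* did the same, with 979, 606 and 760.0 at 6 h and 1057, 989 and 848 at 8 h between 228, 222 and 219.9 at 4 h and 230.2, 228 and 244 at 10 h. In *CG8170* the 6 and 8 h arrays overlap, and in *CG7432* they do not. *CG9737* was at 1367, 1258 and 1073 at 8 h and *CG11836*, the family's 6 h member, at 1162, 738 and 939.5 at 6 h. *CG11836* was also among the genes with a high replicate 2 at -18 h, where its arrays read 208, 588 and 213.

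Metallocarboxypeptidases remove residues from the end of peptide chains, and 3 of the 4 members with this fold were highest at 6 h. *CG3097* read 701, 616 and 752 at 4 h, 2665, 1712 and 2438 at 6 h and 634, 564 and 519 at 8 h, a range of 13.1-fold. *CG3108* was at 1212, 984 and 1119.6 at 6 h and 886, 769.5 and 772 at 8 h against 178, 159.9 and 156 at 12 h. *CG4678* lay below the floor at 0 h and read 352, 207 and 316 at 6 h, at least 4.74-fold over its lowest stage. The exception was *CG4408*, which stepped up from 529, 302 and 433 at -18 h to 1453, 1313 and 1372 at 4 h and 3923, 3362 and 3184 at 8 h. Members of aminopeptidase families, which work from the other end of the chain, were *CG5849*, *CG9416* and *CG46339*, all 3 highest at 8 h, with 286, 266 and 230.4, 1163, 1044 and 959 and 866, 595 and 632 at that stage.

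Kunitz-type inhibitors block serine proteases, and both members of this kind were highest at 8 h. *CG16704* stayed well above the floor throughout, and its lowest stage, 4 h, read 3725, 2425 and 2543 and its highest, 8 h, 14966, 14788 and 14846. At 10 h it was still at 13752, 13178 and 13645. *CG16713*, with 3 protein-coding genes between it and *CG16704*, rose in more than 1 step, from 233, 213 and 327 at -4 h to 1609.7, 1065 and 1678 at 2 h and 3192, 2679 and 2948 at 8 h.

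All 7 transporters in the list were highest at 8 h. The 3 ABC transporters, ATP-driven pumps that often move lipids, had small ranges of 5.26- to 5.46-fold. *CG11147* was low until 6 h, at 337, 264 and 276, and then read 1240.2, 1196 and 1062 at 8 h. *CG32091* was up by 2 h, dipped to 299.7, 264 and 312 at 6 h and reached 1055, 905 and 764 at 8 h, and its 6 and 8 h arrays do not overlap. *CG5853* rose in steps and its 12 h arrays, 2197, 1782 and 1344, overlap those at 8 h, 2050.5, 1699 and 1708. Among the 4 solute carriers, *CG6484*, of the sugar transporter family, had the widest range, 10.4-fold, at 272, 170.4 and 186 at 6 h, 833, 729 and 629.9 at 8 h and 363, 301 and 267 at 10 h. *CG18549* read 1903, 1464 and 1389 at 8 h and 1778, 1288 and 1289 at 10 h, which overlap. The other carriers, *CG8785* and *CG15096*, had an earlier peak as well and are given below.

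Of the 7 lipid genes, 5 were highest at 8 h. *CG12268* and *CG5065* encode predicted fatty acyl-CoA reductases, which make the long-chain alcohols of surface waxes, and they had different times. *CG5065* was up at 4 h, 625, 672 and 664, remained at 908, 647 and 885 at 6 h and 745, 752 and 630.2 at 8 h, and was back at 163, 167 and 185 at 10 h. *CG12268* was lowest at 4 h, 92.7, 91.3 and 95.0, still low at 6 h, 413, 328 and 262, and at 4217, 4732 and 4146 at 8 h, a span of 46.9-fold. *CG42237*, a predicted phospholipase A2, was under the floor at 2 h and reached 408, 239.7 and 331 at 6 h and 390.1, 374 and 300.2 at 8 h, at least 5.87-fold. The predicted lipase *CG13282* read 1979.9, 1643 and 1527 at 8 h against 331, 266 and 221 at 6 h. *CG10657*, with a CRAL-TRIO domain that binds small lipids, went from 529, 505 and 663 at 4 h to 7314, 7293 and 7013 at 8 h and 5407, 4318 and 4951 at 10 h. *CG3823*, of the same fold, was highest in 1306, 1040.4 and 919 at 8 h and had lower means at 6 h than at 4 h, with overlapping arrays of 548, 214 and 345 and 656, 541 and 463. The family's CD36-type receptor, *CG7227*, had 6 h arrays of 1014, 495 and 787, which overlap those at 4, 8 and 12 h.

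Outside these families, *CG10211*, a predicted heme peroxidase, read 926, 856 and 1039 at 4 h, 4189, 3553 and 3777 at 6 h and 3356, 3258 and 2876 at 8 h. *CG7675*, of the short-chain dehydrogenase family, read 2019, 2003 and 1851 at 4 h and 2907, 1586 and 2493 at 6 h, which overlap. *CG32548* is the gene with 2 probe sets, and both had the same profile, with ranges of 6.24- and 4.99-fold and a mean at 8 h of 1334 ± 152 and 2044 ± 128 (SD, n = 3 arrays).

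To see what the members did at stages that had no part in their choice as highest, 5 comparisons that involve neither 6 nor 8 h were tested with limma across 12867 probe sets. A probe set counted as called when its change reached 1.5-fold and its p, adjusted by the method of Benjamini and Hochberg, was under 0.1. The rule used the means of these stages as well, through the range and through the condition that none of them be highest, and successive comparisons share the arrays of a stage. Each count is therefore set beside the percent called among all probe sets and describes the members. In parentheses, SE is the standard error of the log2 difference.

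**Figure D4:**
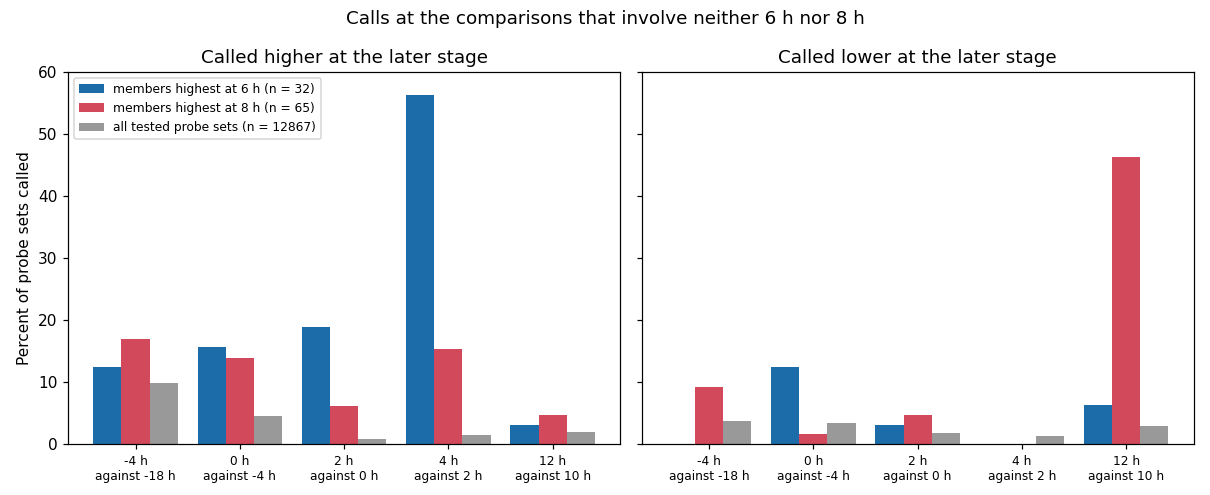
Percent of probe sets called higher (left) and lower (right) at the later stage of each comparison, for the 32 members highest at 6 h, the 65 highest at 8 h and all 12867 probe sets tested. The tallest bars are the 6 h members called higher at 4 h, 56.2%, and the 8 h members called lower at 12 h, 46.2%.

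Between 2 and 4 h, just before the stages of highest expression, 28 members rose and none was called lower, against 1.48% of all probe sets called higher and 1.27% lower. At an unadjusted p under 0.05, 2 members were lower by limma, the tool used throughout. The 6 h members account for 18 of the 28, 56.2% of their number, and the 8 h members for 10, or 15.4%. Their median changes were 0.99 and 0.11 log2 units, where the median over all probe sets was near 0. *CG14107* had the largest rise, 10.9-fold (SE 0.16 log2 units, adjusted p = 2.6e-12). *CG12481*, with arrays of 459.6, 239 and 715 at 2 h and 3820.1, 3769.6 and 4501 at 4 h, rose 9.38-fold (SE 0.26 log2 units, adjusted p = 1.1e-08). *CG4702* went from 711, 416 and 722 to 4290.1, 3631 and 4359.9, a rise of 6.82-fold (SE 0.23 log2 units, adjusted p = 1.9e-08). *CG11786* rose 4.40-fold (SE 0.38 log2 units, adjusted p = 0.00086). In none of the 4 did the 2 and 4 h arrays overlap. *CG4678* and *CG42237*, whose 2 h arrays were at the floor, rose at least 2.30- and 2.23-fold, calls that were lost with the floor at 100 (adjusted p = 0.16 and 0.17). Among 8 h members the largest rises at this step were those of *CG4115*, 3.32-fold, and *CG14062*, 2.74-fold.

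Between 10 and 12 h, on the far side of the peak, 36 members were called against 4.88% of all probe sets, 32 lower and 4 higher, where 2.9% and 1.98% of all probe sets were. The 8 h members make up 30 of the 32 that fell, 46.2% of their number, and the median change was -0.52 log2 units for them and near 0 for the 6 h members, most of which had fallen by 10 h. *CG12164* fell most, from 5375, 4604 and 4879 to 287, 298 and 318, by 16.4-fold (SE 0.16 log2 units, adjusted p = 3.1e-14). *CG14062* fell 12.0-fold (SE 0.20 log2 units, adjusted p = 2.1e-11), *CG17127* 9.28-fold (SE 0.40 log2 units, adjusted p = 5.8e-06) and *CG10657* 8.09-fold (SE 0.35 log2 units, adjusted p = 2.2e-06). For *CG17127* the 12 h arrays read 1079, 1231 and 1320.4 and for *CG10657* 499.9, 537 and 815, and in none of the 4 did the 10 and 12 h arrays overlap. Of the 4 that rose, *CG4702* did so 4.52-fold (SE 0.23 log2 units, adjusted p = 4.2e-07) and *CG12268* 2.99-fold (SE 0.13 log2 units, adjusted p = 5.5e-09), from 1250.3, 1316 and 1077 to 3489.7, 3809 and 3575. *CG10516* rose 1.98-fold (SE 0.21 log2 units, adjusted p = 0.0033), and *CG13784* 2.03-fold (SE 0.31 log2 units, adjusted p = 0.045). The call for *CG13784* was lost without replicate 1, 2 or 3 at 10 h (adjusted p = 0.11, 0.11 and 0.14) or replicate 1 at 12 h (0.26).

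Family counts at this step stand beside 2.9% of all probe sets and 46.2% of the 8 h members called lower, and no family was tested against those shares. By family, 3 of the 4 solute carriers fell between 10 and 12 h, *CG6484* by 3.74-fold, *CG15096* by 2.70-fold and *CG8785* by 2.08-fold. So did 4 of the 7 lipid genes, both *CG5849* and *CG9416* of the 3 aminopeptidases, *CG4998* and *CG9737* of the 5 clip-domain genes, the carboxypeptidase *CG4408* and the inhibitor *CG16704*. The smallest of these falls, that of *CG9737* (1.52-fold), dropped under 1.5-fold without replicate 3 at 10 h or replicate 2 at 12 h. Of the 3 ABC transporters, none passed the test at this step, and *CG5853* went from 1215, 1185 and 1092 to 2197, 1782 and 1344.

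Between 0 and 2 h, 14 members were called against 2.63% of all probe sets, 10 higher (0.777% of all) and 4 lower (1.85%). *CG14062* rose 8.25-fold (SE 0.20 log2 units, adjusted p = 1.7e-09) and *CG32091*, the ABC transporter, 2.76-fold (SE 0.15 log2 units, adjusted p = 8.1e-07), from 241, 250.2 and 192 to 712, 521 and 654. *CG12481* rose 2.32-fold (SE 0.26 log2 units, adjusted p = 0.0063), but was not called when those 6 arrays were fitted on their own (adjusted p = 0.23). *CG4702* rose 2.15-fold (SE 0.23 log2 units, adjusted p = 0.0052). Both have a low replicate 2 at 2 h. The 4 genes that fell were *CG15096*, *CG8785*, *CG12268* and *CG3097*, and 3 of these had risen into pupariation.

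*CG8785*, of an amino acid transporter family, read 616, 806 and 671 at -4 h and 1715, 1931 and 2096 at 0 h, a rise of 2.75-fold (SE 0.16 log2 units, adjusted p = 1.1e-06). At 2 h it was at 638, 608 and 546, 3.20-fold lower (SE 0.16 log2 units, adjusted p = 2.6e-07), and at 8 h at 3418, 2913 and 2918. Its profile thus has a brief peak at pupariation and a longer one in mid prepupae. *CG12268* read 153, 175 and 147 at -4 h, 366, 376 and 406 at 0 h and 134, 141 and 117 at 2 h, up 2.42-fold (SE 0.13 log2 units, adjusted p = 3.7e-07) and down 2.93-fold (SE 0.13 log2 units, adjusted p = 3.3e-08). With its 8 h peak and the rise from 10 to 12 h it came up 3 times. *CG15096*, of the SLC17 family of anion carriers, read 1779.7, 1664 and 1630.0 at 0 h and 427, 428 and 404 at 2 h, a fall of 4.03-fold (SE 0.25 log2 units, adjusted p = 1.5e-05), and returned to 2543, 1957 and 2204 at 8 h. Before that it read 603, 315 and 528 at -18 h and 1663, 973 and 770.2 at -4 h. *CG3097* rose 2.18-fold at 0 h (SE 0.14 log2 units, adjusted p = 9.8e-06) and then fell 1.53-fold (SE 0.14 log2 units, adjusted p = 0.012), a size that dropped under the 1.5-fold limit without replicate 1 or 2 at 0 h or replicate 3 at 2 h and under quantile normalization.

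**Figure D5:**
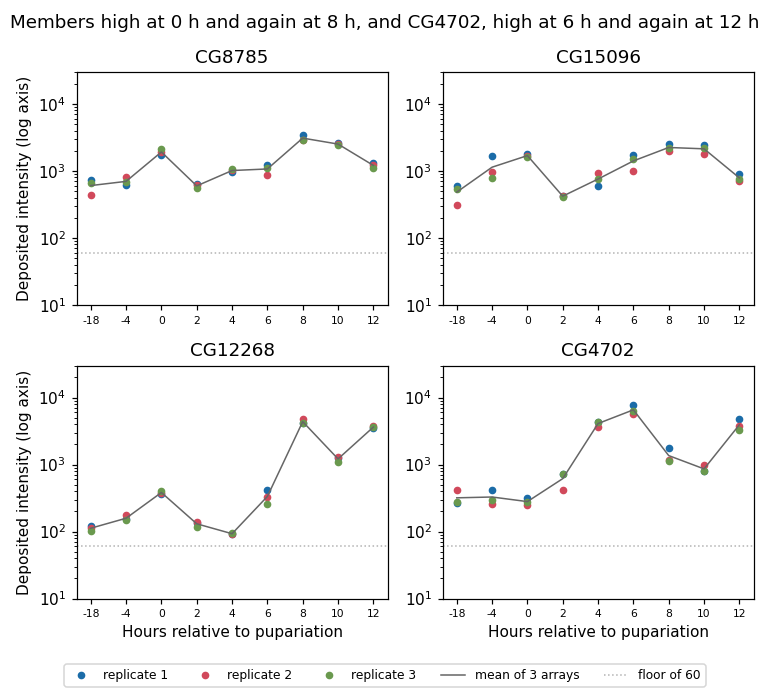
Deposited intensity (log axis) by hours relative to pupariation for *CG8785*, *CG15096* and *CG12268*, which are high at 0 h, low at 2 h and highest at 8 h, and *CG4702*, which is highest at 6 h and high again at 12 h; points are the 3 arrays of a stage and the line joins their means. *CG12268* also rises from 10 to 12 h.

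Between -4 and 0 h, 19 members were called against 7.97% of all probe sets, 14 higher (4.59% of all) and 5 lower (3.37%). The largest rises were those of *CG9686*, 3.48-fold from 124, 201 and 218 to 789, 584 and 496 (SE 0.25 log2 units, adjusted p = 4.5e-05), and *CG5697*, 3.12-fold from 992, 914 and 849 to 3163, 2735 and 2709 (SE 0.09 log2 units, adjusted p = 5e-11). *CG8785* and *CG16713* followed at 2.75- and 2.64-fold (adjusted p = 0.00054 for *CG16713*). *CG9686* and *CG5697* thus rose at pupariation and had higher means again at 2 and 4 h. Among those that fell, *CG5756* was 1.98-fold lower (SE 0.17 log2 units, adjusted p = 0.00037) and *CG13856*, from 350.0, 245 and 389 to 174, 195 and 176, 1.77-fold (SE 0.18 log2 units, adjusted p = 0.0041). *CG15080* was 1.89-fold lower (adjusted p = 0.029) and *CG13847* 1.61-fold (adjusted p = 0.096), and both calls rested on replicate 1 at -4 h, without which their adjusted p was 0.26 and 0.63. They were also lost without replicate 1 at 0 h (0.10 and 0.25), and *CG13847* without replicate 2 or 3 at 0 h too (0.20 and 0.14). *CG13847* was not called with the replicate number as a block either (0.11). Without replicate 1 at -4 h, 15 members were called, 13 higher and 2 lower, and without replicate 2 at -18 h as well, 16, of which 14 were higher and 2 lower. Without replicate 2 at -4 h they were 30, with 18 higher and 12 lower, and without replicate 3 at -4 h they were 31, with 17 and 14. Lower calls were 2 of 13 without replicate 1 at 0 h and 3 of 14 and 3 of 18 without replicates 2 and 3. Of all probe sets, 558 were called without replicate 1 at -4 h, 2035 without replicate 2 and 2156 without replicate 3, in place of 1025.

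Between -18 and -4 h, 21 members were called, 15 higher and 6 lower, against 13.5%, 9.85% and 3.65% of all probe sets. Few of these calls were stable, and 3 held under every alternative tried. These were *CG4408*, up 2.61-fold from 529, 302 and 433 to 838, 1113 and 1326 (SE 0.18 log2 units, adjusted p = 3.9e-06), *CG5697*, up 1.66-fold (SE 0.09 log2 units, adjusted p = 3.4e-06), and *CG6398*, up 1.58-fold (SE 0.14 log2 units, adjusted p = 0.0014). *CG3823*, with 2 of its 3 arrays at -18 h under the floor, rose by at least 2.94-fold and *CG15096* by 2.32-fold (adjusted p = 0.0021 and 0.0012), but they were not called from the 6 arrays alone (0.13 and 0.20). *CG12861* rose 2.39-fold (adjusted p = 0.051), with arrays of 304, 83.5 and 98.0 and 131, 548 and 471 that overlap, and was lost without replicate 2 or 3 of either stage (adjusted p from 0.19 to 0.26). The largest falls were those of *CG13102*, 2.45-fold (SE 0.22 log2 units, adjusted p = 0.00015), and *CG6484*, 2.05-fold (SE 0.23 log2 units, adjusted p = 0.0019), neither of them called from the 6 arrays alone (0.14 and 0.16). *CG16713* and *CG9568* fell 1.81- and 1.66-fold (adjusted p = 0.014 and 0.017), and the fall was under 1.5-fold in both without replicate 1 at -18 h. Without replicate 2 at -18 h and replicate 1 at -4 h together, 29 members were called, among them all 21. Of all probe sets, 2007 were called then in place of 1738.

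Some members are neighbours in the genome, as read from the order of protein-coding genes. *CG9568* and *CG13102* are adjacent and both were highest at 8 h, with 3717, 3088 and 3043 and 619, 533 and 486, and their stage means correlated at r = 0.93 over 9 stages, a description of points that were chosen for a shared peak. *CG9686* and *CG9689* are adjacent too, with r = 0.58 and different stages of highest expression. The carboxypeptidase genes *CG3097* and *CG3108* have 1 gene between them (r = 0.75), as do *CG14327* and *CG14326* (r = 0.69). *CG14327* was the more restricted of these, with 208, 211 and 206 at 6 h and 4132, 3649 and 3442 at 8 h, while *CG14326* had 3622, 2463 and 3303 and 3864, 3728 and 4185. *CG15249* and *CG43386* have 4 genes between them (r = 0.85), and *CG42237* and *CG32645* have 3 (r = 0.87). *CG16704* and *CG16713*, the Kunitz-type inhibitors, correlated at r = 0.49. In the remaining 3 close pairs the members had different stages of highest expression: *CG15080* and *CG15096* (r = 0.36), *CG13376* and *CG3777* (r = 0.24), and *CG9689* and *CG15249* (r = -0.08).

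The known regulators of this interval show where the members lie in it. Of 18 listed regulators of the ecdysone response, 14 were measured, each by its brightest tested probe set. *Eip74EF*, *Eip75B*, *Hr38* and *crol* had no tested probe set under that symbol alone. Among the 14 measured, *ftz-f1* was the only one highest at 6 or 8 h. Its means were 95.0 at 4 h and 259 at 10 h. The *ftz-f1* arrays read 712, 217 and 444 at 6 h and 1297, 1114 and 1297 at 8 h. Among all probe sets tested 15.9% were highest at 6 or 8 h. Of the measured L71 genes, a salivary gland family induced late in the response to 20E, 7 of 9 were highest at 6 or 8 h, and so were 7 of 12 genes of chitin and epidermis. Unlike the members, these genes had no range to meet. The L71 median was 0.11 log2 units higher at 6 h than at 4 h. *Eig71Ed* had means of 12965, 12875 and 13087 at 4, 6 and 8 h, while *Eig71Ek* went from 94.2 to 1331 and 5176. Of the chitin and epidermis genes highest then, *grh* and *TwdlF* ranged by only 0.86 and 0.40 log2 units. In the same list *TwdlT*, a cuticle protein gene, went from 368 at 4 h to 4525 at 6 h and 12968 at 8 h, and back to 1901 at 10 h. The chitin deacetylase genes *serp* and *verm* stood at 12333 and 12633 at 8 h. Other genes of this list were highest elsewhere: *Cht5* at 4 h, *mmy* at 10 h, and *kkv*, *knk* and *Cht2* at 12 h. *Cht5* went from 7408 at 4 h to 2358 at 8 h. The 11 measured genes of prepupal cuticle had a median 2.17 log2 units higher at 8 h than at 4 h, but none had its highest mean at 6 or 8 h, as 9 were highest at 10 h. For example, *Edg84A* was at 9516 at 8 h and 15603 at 10 h.

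Marker lists of other tissues are given because the samples are whole animals. Their sums add intensities that are not calibrated between probe sets, so the brightest probe sets weigh most. The summed mean of 20 midgut genes went from 225625 at -18 h to 8387 at 6 h and 7051 at 8 h, and that of 8 glue genes of the salivary gland from 74166 to 3051 and 3383. For hemocytes (8 genes), muscle (9) and nervous system (8) the sums at 4, 6 and 8 h lay between 2143 and 2197, 4373 and 5079, and 1939 and 1969. None of these 5 lists had a gene highest at 6 or 8 h. Of the fat body genes 2 of 3 and of the testis genes 6 of 14 were highest then, but their sums were nearly level, from 53172 at 4 h to 49991 at 8 h and from 18594 to 19969. The L71 sum went from 42711 at 4 h to 62570 at 8 h and the sum for chitin and epidermis from 32797 to 69859. What part any tissue had in the members' pattern was not tested.

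The share highest at these stages can be set beside that of named genes. Among CG probe sets with a 4-fold range, 97 of 407, or 23.8%, were highest at 6 or 8 h, and among probe sets with another symbol and such a range the share was 133 of 592, or 22.5%. In the CG group the share highest at 6 h was 7.86% and that highest at -18 h was 20.1%, the largest of any single stage.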

How the data were processed

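Total RNA of 27 samples, 3 for each of 9 stages, was hybridized to Affymetrix *Drosophila* Genome Arrays. The deposited intensity values are linear, 1 per probe set and array, and were normalized and summarized by the authors with dChip 1.2; the sources used here do not say whether mismatch probes were used, nor give scan dates. The 3 arrays per stage limit the precision, and the study's methods state that its array experiments were independent triplicates. Values printed as array readings are as deposited, in the order replicate 1, 2 and 3. Folds and tests use values floored at 60, as ratios of geometric means, and SE are of the log2 difference. The test was limma's lmFit and eBayes (version 3.58.1, R 4.3.3), with 1 term per stage over the 27 arrays (18 residual degrees of freedom, prior 3.54). It covered 12867 probe sets, those with some stage at which every array exceeded the floor, and p-values were adjusted over all of them by Benjamini-Hochberg. All 97 members passed that filter. The adjusted p limit of 0.1 and the 1.5-fold limit follow the study. The fit was tested on simulated data.

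Gene symbols are those of the platform annotation. All 97 matched a RefSeq gene table (Release 6 plus ISO1 MT), used for names and gene order only, and kept the same CG symbol there. Members, lists and tests were chosen with earlier results of these data known, and families were formed from general knowledge of the encoded proteins. Genes were named by rule: the 10 widest ranges and 5 highest intensities per peak stage, 3 on each side of the range limit, neighbours, the 4 largest called rises and falls per comparison, up to 4 still within 2-fold of the highest mean at 12 or -18 h, and up to 4 per list; the members of families, the other genes lost in an alternative and the broad profiles were added after their values were seen. Protein matches and sequence features, planned at first, were not analysed here. Alternatives were the fit to 6 arrays, quantile and median scaling, floors of 30 and 100, log2 of the value plus 16, no filter, array weights, the replicate number as a block, ranges of 3- and 6-fold, and each array left out. Fits without the arrays that stand apart were chosen after seeing the data. Figures were drawn with matplotlib 3.10.9.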

Additional observations from a re-analysis of the deposited data

How the results depend on the processing

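The number of members stayed between 90 and 113 when any 1 array was left out and was 132 at a range of at least 3-fold and 53 at 6-fold. Without 1 array of the stages compared, members called ranged from 14 to 30 at -4 against -18 h, 13 to 31 at 0 against -4 h, 12 to 15 at 2 against 0 h, 25 to 30 at 4 against 2 h and 33 to 38 at 12 against 10 h. Over all probe sets, those called ranged from 1475 to 2882 at -4 against -18 h and from 558 to 2156 at 0 against -4 h. Fitted to its 6 arrays alone, -4 against -18 h gave 4 called members of 97 in place of 21. In that fit 581 of the 12867 probe sets were called in place of 1738. The remaining alternatives that kept all arrays moved no count of members called by more than 1.5 times, and no alternative reversed a call. Of the 118 calls, 77 held under every alternative, 3 of 21, 11 of 19, 11 of 14, 22 of 28 and 30 of 36 in the order above, and 27 were lost on leaving out 1 array. With the replicate number as a block, 22, 20, 14, 28 and 38 members were called in the same order. Deviations of same-numbered samples at the stages compared correlated between -0.82 and 0.55. With 3 arrays per stage, these values cannot settle whether same-numbered samples belong together, and the main fit did not use the number. Low signal limits the 7 members with a whole stage at the floor, and others with single arrays there.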
